A study of Mus musculus with 20 samples.

Results

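The glutathione and antioxidant defence genes described here were 44 genes named by symbol, of which all 44 were found among the 54838 Ensembl genes of the count tables. They comprise 16 glutathione transferases, 4 glutathione peroxidases, 4 genes of glutathione synthesis and reduction, 6 peroxiredoxins with *Srxn1*, 5 genes of the thioredoxin system, 3 superoxide dismutases with *Cat*, and *Nfe2l2* (Nrf2), *Keap1*, *Hmox1* and *Nqo1*. Their transcripts were measured in ovaries of the Dummerstorf high-fertility line FL1 and of the unselected control line (ctrl), both descended from 1 outbred stock. FL1 was bred over many generations for large and heavy litters, whereas ctrl was kept without selection under rotational mating, and no treatment is named for either line. Each line was sampled in estrus and in diestrus at an age of about 77 days, with 5 animals per group and 1 library per animal, and the stage was read from vaginal smears. The animals of a line are not genetically identical, so that line differences include everything in which the lines diverged, by selection or by drift. Whole ovaries were used after fat, oviduct and *Tunica albuginea* had been removed, and in such bulk samples fewer cells of a type and less RNA per cell cannot be told apart.

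Steroid synthesis in mitochondria leaks electrons onto oxygen, and steroidogenic cells of the ovary carry several layers of enzymes that remove the resulting oxidants. Superoxide dismutases turn superoxide into hydrogen peroxide, which catalase breaks down, as do glutathione peroxidases and peroxiredoxins at the expense of glutathione or thioredoxin. Glutathione transferases couple glutathione to reactive products such as lipid aldehydes, and the transcription factor Nrf2, held back by Keap1, drives many of these genes through antioxidant response elements. The corpus luteum, the main source of progesterone after ovulation, is known for a high level of such enzymes.

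Depth lay between 5991223 and 10352718 counts per library, with a median of 6957533. Levels are given as CPM, in which counts are divided by library size after TMM scaling of the 20 libraries together, and differences as log2FC with their SE from edgeR's quasi-likelihood test, called at an adjusted p of at most 0.05 (Benjamini-Hochberg over all genes tested). The 40 pairs of libraries within groups all differed by more than counting error, with 6.03 to 42.4 as the chi-square divided by the number of genes. 3 libraries stood apart. A luteal score, the mean log2 CPM of *Star*, *Cyp11a1*, *Hsd3b1*, *Scarb1*, *Lhcgr*, *Prlr*, *Hsd17b7*, *Ptgfr* and *Sfrp4*, was 10.5 in ctrl diestrus replicate 1 and 10.7 in replicate 5, against 11.3 to 11.6 in the other 3 libraries of that group. In estrus it was highest in ctrl replicate 5 at 10.6, against 9.41 to 10.2 in the other ctrl libraries. The summed CPM of 8 erythroid genes was 440.4 in ctrl diestrus replicate 5 and 1863 to 2812 in the other 4 libraries of that group. Calls of members that rest on these libraries are given with and without them, whereas marker values are given over all libraries only.

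All groups carried the luteal genes, the granulosa genes apart from *Amh* and the oocyte genes, as ovary labels imply. *Amh*, *Insl3*, *Lep*, *Slc4a1*, *Ovgp1*, *Pax8* and *Foxj1* did not exceed 2.41 CPM in any library. The sum of the 5 oviduct markers was between 14.6 and 41.5 CPM and that of the 5 fat markers between 18.9 and 108.6 CPM.

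The sequences upstream of 6 genes are shown because these genes differed between the lines in diestrus or followed the luteal score, and because 3 of them hold the core letters of an antioxidant response element. Each is the stretch of 250 bases before a RefSeq transcript start (GRCm38.p6), 5′ to 3′ on the gene's strand, and capitals mark TGACNNNGC on either strand. *Txnrd1* has 3 windows and *Mgst1* 2, of which the 1 with a match is shown, and their other windows held none. *Gpx1*, without a match, and *Gstm5*, with a match, also followed the luteal score and are not shown.
Gpx3, chr11:54902604-54902853, + strand: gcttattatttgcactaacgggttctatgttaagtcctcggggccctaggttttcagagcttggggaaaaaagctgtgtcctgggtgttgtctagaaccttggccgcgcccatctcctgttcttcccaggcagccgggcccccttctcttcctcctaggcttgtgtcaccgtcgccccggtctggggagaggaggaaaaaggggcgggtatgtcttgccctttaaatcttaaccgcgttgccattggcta
Gpx8, chr13:113046389-113046638, - strand: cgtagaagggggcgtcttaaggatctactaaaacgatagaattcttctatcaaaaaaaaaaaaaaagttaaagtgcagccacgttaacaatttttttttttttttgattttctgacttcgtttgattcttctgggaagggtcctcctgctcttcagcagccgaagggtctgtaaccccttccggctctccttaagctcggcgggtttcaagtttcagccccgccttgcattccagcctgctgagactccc
Cat, chr2:103485154-103485403, - strand: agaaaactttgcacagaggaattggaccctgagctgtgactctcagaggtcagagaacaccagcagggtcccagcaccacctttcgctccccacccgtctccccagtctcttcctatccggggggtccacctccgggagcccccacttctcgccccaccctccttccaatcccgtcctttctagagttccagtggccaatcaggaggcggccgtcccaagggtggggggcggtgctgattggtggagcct
Txnrd1, chr10:82858956-82859205, + strand: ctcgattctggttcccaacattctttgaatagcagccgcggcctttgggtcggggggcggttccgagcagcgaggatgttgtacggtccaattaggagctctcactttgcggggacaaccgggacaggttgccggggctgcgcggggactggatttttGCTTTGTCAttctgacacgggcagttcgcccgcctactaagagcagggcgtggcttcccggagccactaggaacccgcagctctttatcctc
Prdx1, chr4:116685349-116685598, + strand: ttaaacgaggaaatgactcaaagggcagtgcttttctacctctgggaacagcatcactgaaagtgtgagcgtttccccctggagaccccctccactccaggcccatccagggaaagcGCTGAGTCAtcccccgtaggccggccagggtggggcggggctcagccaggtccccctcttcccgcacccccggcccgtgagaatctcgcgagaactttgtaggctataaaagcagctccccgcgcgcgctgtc
Mgst1, chr6:138140277-138140526, + strand: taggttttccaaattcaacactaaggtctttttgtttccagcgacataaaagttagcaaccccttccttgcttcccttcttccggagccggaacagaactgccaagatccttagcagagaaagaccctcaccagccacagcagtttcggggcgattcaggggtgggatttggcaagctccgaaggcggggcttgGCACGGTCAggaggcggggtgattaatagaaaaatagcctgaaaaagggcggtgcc
Of the 44 genes, 37 were in the promoter table, and *Gsta4*, *Hmox1*, *Prdx6*, *Gsr*, *Gstt2*, *Sod3* and *Gclc* were not. TGACNNNGC occurred in at least 1 window of 9 of these 37 genes (24.3%), beside 11.5% of all 27025 genes of the table. The 9 genes were *Gclm*, *Gsta3*, *Gstm5*, *Gstm7*, *Mgst1*, *Nfe2l2*, *Prdx1*, *Sod1* and *Txnrd1*. *Gpx3*, *Gpx8* and *Cat* held no match in the windows shown. The half-site CAAGGTCA, to which the steroidogenic NR5A receptors bind, occurred in 0 of the 37 genes and in 1.51% of all genes, searched on both strands. A match in this window is a description of letters, not of a bound site.

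In diestrus, FL1 ovaries expressed *Gpx3*, *Gsta4* and *Gpx8* weaker and *Cat* and *Txnrd1* stronger than ctrl ovaries. These 5 of the 43 members tested (11.6%) were called, beside 4.11% of all 13259 genes. The 3 weaker expressed members stood beside 1.82% of all genes and the 2 stronger expressed ones beside 2.29%. *Gsta1* had too few counts to be tested. The line groups did not overlap in CPM for 4 members, *Gpx3*, *Gpx8*, *Gsta4* and *Txnrd1*, a separation that 5.45% of all genes showed. The median log2FC was -0.03 over the members and -0.01 over all genes. Without FL1 diestrus replicate 3 or replicate 4, 3 members were called.

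*Gpx3* encodes the secreted plasma glutathione peroxidase (chr11:54902453-54910377, GRCm38). In ctrl diestrus it measured 1616, 1773, 2652, 3748 and 2190 CPM. In FL1 diestrus it measured 654, 1124, 1191, 1188 and 782 CPM. Every FL1 library lay below every ctrl library, and the difference was 2.43-fold (log2FC -1.28, SE 0.22, adjusted p = 0.0052). Among the 5 called members this was the largest difference, and it was called in each of the 10 fits without 1 library and in the 8 other alternatives. In estrus the log2FC of *Gpx3* was -0.80 (SE 0.26, adjusted p = 0.15). The estrus values of ctrl, 1058, 1696, 730, 862 and 2409 CPM, spread widely and overlapped those of FL1, 853, 732, 763, 724 and 815 CPM.

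*Gpx8* encodes a peroxidase of the endoplasmic reticulum (chr13:113042753-113046410). Ctrl diestrus libraries measured 70.7, 84.0, 71.0, 54.9 and 72.1 CPM. FL1 diestrus libraries measured 49.8, 53.1, 44.4, 43.0 and 49.1 CPM. The highest FL1 library was just below the lowest ctrl library, and the log2FC was -0.56 (SE 0.11, adjusted p = 0.011). In estrus the groups overlapped, with 72.9 to 77.5 CPM in ctrl and 63.2 to 79.3 CPM in FL1, and the log2FC was -0.08 (SE 0.10, adjusted p = 0.74).

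*Gsta4* encodes a glutathione transferase that acts on the lipid aldehyde 4-hydroxynonenal (chr9:78182774-78209349). It measured 238, 230, 210, 185 and 180 CPM in ctrl diestrus. In FL1 diestrus it measured 106, 149, 114, 107 and 121 CPM, below every ctrl library. The log2FC of -0.81 (SE 0.11, adjusted p = 0.0010) was called in all 10 fits that left out 1 library, and missed the threshold at an adjusted p of 0.053 when 1 fit of all 20 libraries was used. In ctrl estrus *Gsta4* ranged from 90.0 CPM in replicate 1 to 292 CPM in replicate 2, a range that enclosed the 121 to 163 CPM of FL1 estrus (log2FC -0.31, SE 0.27, adjusted p = 0.65).

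*Cat*, the peroxisomal catalase (chr2:103453849-103485160), was the stronger expressed enzyme of peroxide removal in FL1 diestrus. FL1 diestrus libraries measured 254, 147, 235, 202 and 198 CPM. Ctrl diestrus libraries measured 88.1, 146, 160, 121 and 92.2 CPM. Only FL1 replicate 2 fell within the ctrl range, and the difference was 1.71-fold (log2FC 0.77, SE 0.17, adjusted p = 0.022). The 2 lowest ctrl values were those of replicates 1 and 5, the libraries with the lowest luteal scores. Without both, the log2FC was 0.54 (SE 0.15) and the adjusted p 0.062. The call was also lost when FL1 diestrus replicate 1, 3 or 4 was left out, with a log2FC of at least 0.67 in each fit that left out 1 library. In estrus *Cat* measured 86.8 to 111 CPM in ctrl and 84.1 to 108 CPM in FL1.

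*Txnrd1*, the cytosolic thioredoxin reductase, a selenoenzyme that recharges thioredoxin (chr10:82833951-82897712), showed a small and even difference. Ctrl diestrus libraries measured 82.6, 78.8, 83.9, 77.3 and 76.2 CPM. FL1 diestrus libraries measured 89.2, 96.0, 102, 108 and 105 CPM. The groups did not overlap, and FL1 was 1.25-fold higher (log2FC 0.32, SE 0.08, adjusted p = 0.034). The call missed the threshold without ctrl diestrus replicate 2, 4 or 5 or FL1 diestrus replicate 3, 4 or 5, with adjusted p of at most 0.092 and log2FC of 0.30 to 0.36 over the 10 fits without 1 library. Without both ctrl diestrus libraries of low luteal score the log2FC was 0.32 and the adjusted p 0.082. In estrus all libraries of both lines lay between 72.0 and 83.5 CPM.

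**Figure D1:**
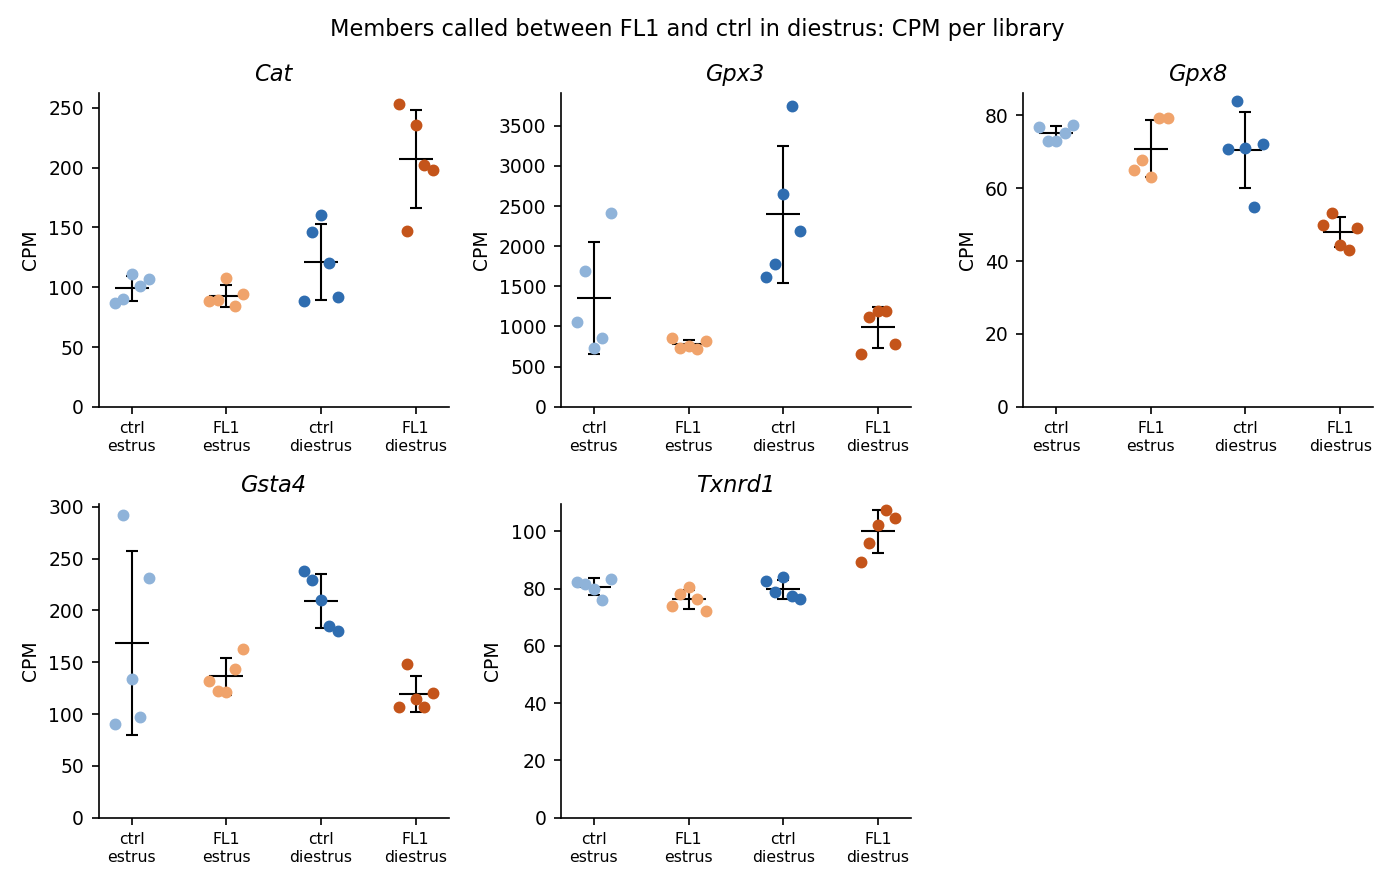
CPM of the 5 members called between FL1 and ctrl in diestrus, for each library of the 4 groups (5 libraries each, horizontal line mean, bars SD). The FL1 diestrus libraries of *Gpx3*, *Gpx8* and *Gsta4* sit below, and those of *Txnrd1* above, all ctrl diestrus libraries, while the FL1 and ctrl estrus libraries overlap in all 5 panels.

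The 3 members nearest to the threshold in diestrus, named after their values were seen, were *Srxn1*, which encodes sulfiredoxin, the repair enzyme of peroxiredoxins (log2FC -0.47, SE 0.14, adjusted p = 0.082), and the transferases *Gstm6* (0.67, SE 0.21, adjusted p = 0.093) and *Gstm7* (0.58, SE 0.20, adjusted p = 0.13). DESeq2 called *Srxn1* and *Gstm6*, and edgeR without a filter on low counts called all 3 but not *Txnrd1*. By role, the 4 genes of glutathione synthesis and reduction had log2FC between -0.15 and -0.0017 and none was called. Among 7 peroxiredoxin genes (with *Srxn1*) log2FC ranged from -0.47 to 0.23, with none called by edgeR and *Srxn1* called by DESeq2. *Nfe2l2*, *Keap1*, *Hmox1* and *Nqo1* ranged from -0.16 to 0.22, and the lowest adjusted p was 0.24 for *Keap1*. *Gpx1*, the main cytosolic peroxidase, also named after its values were seen, was split within ctrl diestrus, with 1076 CPM in replicate 1 and 718 CPM in replicate 5 against 2314 to 3010 CPM in the other 3 libraries. Its log2FC was -0.20 (SE 0.32, adjusted p = 0.81) over all libraries and -0.64 (SE 0.16, adjusted p = 0.035) without those 2.

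Other markers moved with the line in diestrus. Of 9 luteal genes, *Hsd17b7*, which acts in cholesterol synthesis and is abundant in corpora lutea, and *Lhcgr*, the LH receptor, were stronger expressed in FL1 (log2FC 2.05, SE 0.43, and 1.43, SE 0.32). *Star* (0.02, SE 0.25) and *Hsd3b1* (0.02, SE 0.15), which act in progesterone synthesis, were not called. In ctrl diestrus replicate 5, *Hsd17b7* had 591 and *Lhcgr* 530 counts. The other ctrl diestrus libraries had 4398 to 6855 and 1347 to 2381 counts. The summed luteal level was 23411 to 41839 CPM in ctrl and 35819 to 44202 CPM in FL1. Of 7 macrophage genes, *Lyz2* (1.31, SE 0.30) and *Cd68* (0.79, SE 0.21) were stronger expressed, and no other was called. *Lyz2* had the most counts of the 7 in every diestrus library. *Csf1r* had 110 to 303 counts in ctrl diestrus and 122 to 158 in FL1 diestrus, and *Adgre1* 59 to 181 and 59 to 95. The macrophage sums were 189.9 to 334.5 CPM in ctrl and 257.1 to 561.8 CPM in FL1. Of 5 erythroid genes tested, only *Hba-a2* was called, stronger expressed in FL1 (4.77, SE 0.66). It had 12 to 55 counts per library in ctrl diestrus and 115 to 1696 in FL1 diestrus. Copies of markers were not searched for, and a split of reads between similar genes was not tested. The erythroid sums of 440.4 to 2812 CPM in ctrl and 1274 to 3519 CPM in FL1 overlapped. Of 9 granulosa genes tested, only *Foxl2* was called, stronger expressed in FL1 (0.53, SE 0.11). The authors' qPCR of *Foxl2* in diestrus, on more animals, gave a difference of the opposite sign without a mark of significance. Their qPCR of *Lhcgr* in diestrus had the sign found here and was marked as significant. The part of these markers in the differences of *Gpx3*, *Gpx8*, *Gsta4*, *Cat* and *Txnrd1* was not tested.

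In estrus, no member was called between FL1 and ctrl by edgeR (0 of 44, beside 2.33% of all 13374 genes, 1.07% stronger and 1.26% weaker expressed). 9 members had an unadjusted p under 0.05, beside 2121 of all genes, and DESeq2 called 1 member, *Mgst1*. The groups did not overlap for 2 of 44 members, *Sod2* and *Mgst1*, a share close to the 4.88% of all genes. *Sod2*, the mitochondrial superoxide dismutase, measured 127, 124, 138, 154 and 140 CPM in ctrl estrus. In FL1 estrus it measured 100, 98.8, 123, 104 and 113 CPM, which placed every FL1 library below the ctrl libraries by a small margin (log2FC -0.34, SE 0.10, adjusted p = 0.092). *Mgst1*, a glutathione transferase of microsomal and outer mitochondrial membranes, measured 599, 794, 746, 684 and 738 CPM in ctrl estrus. It measured 860, 801, 1164, 898 and 1166 CPM in FL1 estrus (log2FC 0.46, SE 0.13, adjusted p = 0.093 by edgeR and 0.026 by DESeq2). Both genes are named after their values were seen. The median log2FC was -0.08 over the members and -0.01 over all genes. The 4 genes *Nfe2l2*, *Keap1*, *Hmox1* and *Nqo1* had log2FC between -0.17 and -0.06.

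**Figure D2:**
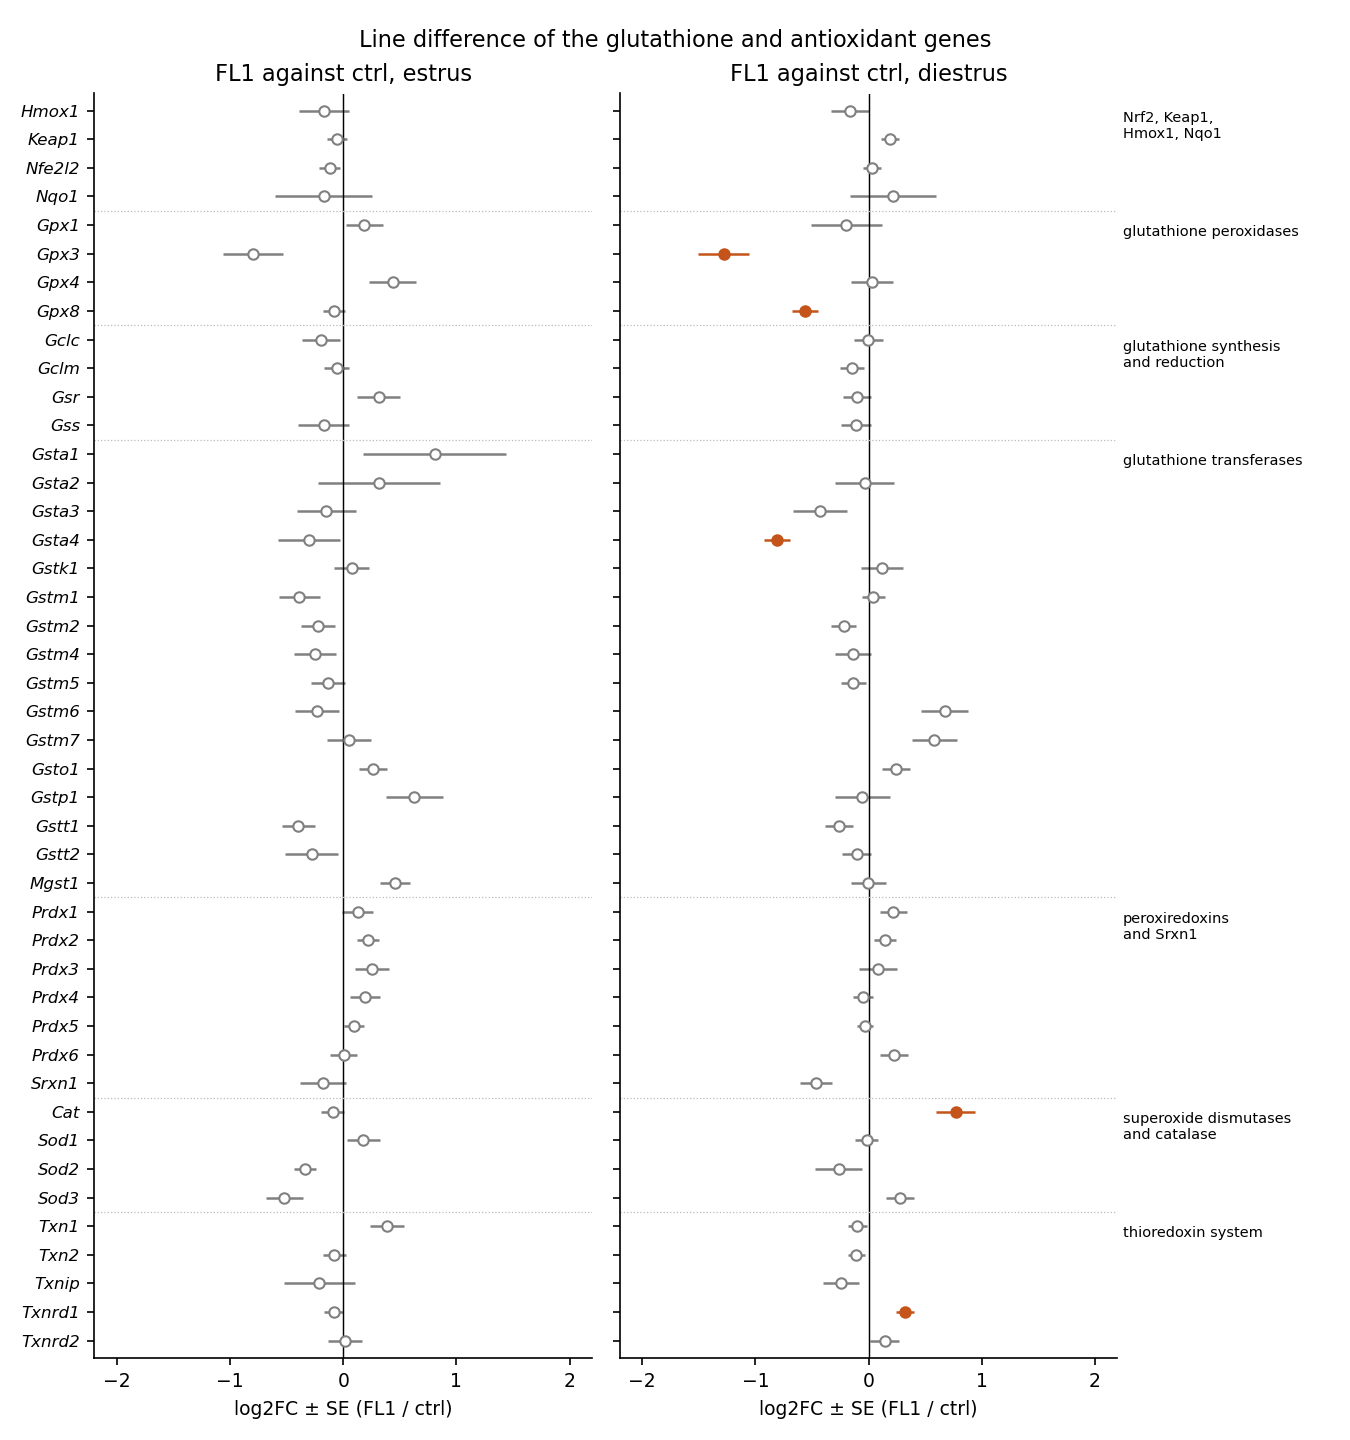
Log2FC of FL1 relative to ctrl with SE for the members in estrus (left, 44 tested) and diestrus (right, 43 tested), grouped by role. Filled symbols mark the 5 members called in diestrus at an adjusted p of at most 0.05, and no symbol is filled in estrus.

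Whether the line difference depended on the stage was tested with an interaction term over all 20 libraries, expressed as the log2FC in estrus minus that in diestrus. edgeR called 0 of 44 members (beside 0.0565% of 14154 genes), 8 members had an unadjusted p under 0.05 (beside 1654 of all genes), and DESeq2 called 3, *Txnrd1* (adjusted p = 0.025), *Cat* (adjusted p = 0.026) and *Sod3* (adjusted p = 0.046). The lowest edgeR values belonged to *Cat* (-0.86, SE 0.22, adjusted p = 0.12), *Txnrd1* (-0.41, SE 0.10, adjusted p = 0.12), the extracellular superoxide dismutase *Sod3* (-0.80, SE 0.22, adjusted p = 0.14), *Gpx8* (0.48, SE 0.14, adjusted p = 0.18) and *Gstm6* (-0.90, SE 0.28, adjusted p = 0.20), which are named after their values were seen. *Sod3* had a log2FC of -0.52 (SE 0.16) in estrus and 0.28 (SE 0.13) in diestrus, and neither was called. For *Gpx3* the interaction was 0.48 (SE 0.37, adjusted p = 0.65) and for *Gsta4* 0.50 (SE 0.32, adjusted p = 0.56). By edgeR, no line difference called in diestrus was thus shown to differ from that in estrus.

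Between the stages, FL1 ovaries changed 12 of 44 members (27.3%), beside 15.9% of all 13350 genes. 9 members were weaker expressed in estrus than in diestrus, beside 8.49% of all genes, and 3 were stronger, beside 7.42%. The groups did not overlap for 11 members, beside 12.2% of all genes. *Cat*, *Sod2*, *Sod3*, *Gpx1*, *Prdx1*, *Prdx3*, *Prdx6*, *Txnrd1* and *Gstm6* fell in estrus, whereas *Gpx8*, *Txn1* and *Gstm2* rose. In 1 fit of all libraries 8 members were called, and *Gpx1* (adjusted p = 0.055), *Gstm2* (adjusted p = 0.092), *Prdx3* and *Sod3* lost their calls.

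Catalase fell most among the enzymes of peroxide removal. *Cat* measured 88.9, 89.2, 108, 84.1 and 94.3 CPM in FL1 estrus, against the 147 to 254 CPM of FL1 diestrus given above. The groups were separate and the log2FC was -1.16 (SE 0.12, adjusted p = 1.0e-05), a 2.23-fold lower level. The mitochondrial *Sod2*, with the 98.8 to 123 CPM of FL1 estrus given above, measured 203, 125, 181, 140 and 237 CPM in FL1 diestrus (log2FC -0.71, SE 0.14, adjusted p = 0.0027). The gap between the stages was narrow, from 123 to 125 CPM.

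*Gpx1* measured 825, 783, 1015, 940 and 1224 CPM in FL1 estrus. In FL1 diestrus it measured 1234, 1573, 2336, 1934 and 1532 CPM, with no overlap (log2FC -0.85, SE 0.15, adjusted p = 0.0013). *Gpx8* moved the other way, from 43.0 to 53.1 CPM in FL1 diestrus to 63.2 to 79.3 CPM in FL1 estrus (log2FC 0.56, SE 0.10, adjusted p = 0.00094). *Gpx3* and *Gpx4*, the latter a peroxidase of membrane lipid peroxides, were not called (log2FC -0.35, SE 0.14, and -0.41, SE 0.18).

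Among the peroxiredoxins, *Prdx6*, a peroxiredoxin that also hydrolyses phospholipids, measured 232, 199, 203, 157 and 167 CPM in FL1 estrus. It measured 400, 273.8, 272, 285 and 334 CPM in FL1 diestrus, higher in every library (log2FC -0.71, SE 0.12, adjusted p = 0.00096). *Prdx1*, the abundant cytosolic peroxiredoxin, measured 1040, 1077, 1171, 990 and 1169 CPM in FL1 estrus. It measured 1598, 1398, 1663, 1503 and 1755 CPM in FL1 diestrus, again without overlap (log2FC -0.54, SE 0.09, adjusted p = 0.00047). Mitochondrial *Prdx3*, outside the rule for named genes, fell as well (log2FC -0.46, SE 0.08, adjusted p = 0.0012). *Prdx2*, *Prdx4*, *Prdx5* and *Srxn1* were not called, with log2FC between -0.14 and 0.23.

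Of 16 glutathione transferases, 12 had a positive log2FC in FL1 estrus relative to diestrus and 2 were called. *Gstm6* measured 11.5, 9.45, 8.91, 6.20 and 9.19 CPM in FL1 estrus. It measured 33.5, 17.5, 30.7, 18.1 and 20.5 CPM in FL1 diestrus, which made it the member with the largest stage difference (2.66-fold lower, log2FC -1.41, SE 0.21, adjusted p = 0.00028). *Gstm2*, from the same mu class cluster on chromosome 3, measured 366, 359, 275, 373 and 332 CPM in FL1 estrus and 239, 305, 262.6, 260 and 260 CPM in FL1 diestrus (log2FC 0.36, SE 0.09, adjusted p = 0.015). The 2 genes of 1 cluster thus moved in opposite directions, and the *Gstm2* groups overlapped through the third estrus and the second diestrus library. The 3′ ends of both share sequence with other genes, but those copies had at most 2 counts each in all libraries together.

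In the thioredoxin system, *Txn1*, the cytosolic thioredoxin, measured 547, 441, 456, 566 and 567 CPM in FL1 estrus. It measured 319, 400, 394, 356 and 396 CPM in FL1 diestrus (log2FC 0.46, SE 0.10, adjusted p = 0.0034), with no overlap. Its reductase *Txnrd1* fell (log2FC -0.39, SE 0.08, adjusted p = 0.0029), from 89.2 to 108 CPM in diestrus to 72.0 to 80.5 CPM in estrus. *Sod3*, like *Txnrd1* outside the rule for named genes here, fell too (log2FC -0.44, SE 0.12, adjusted p = 0.024), with overlapping groups. The 4 genes of glutathione synthesis and reduction ranged from -0.31 to 0.04, and *Nfe2l2*, *Keap1*, *Hmox1* and *Nqo1* from -0.26 to 0.58, with none called in either group.

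All 9 luteal genes were weaker expressed in FL1 estrus than in FL1 diestrus, with summed levels of 13179.5 to 23476 CPM against 35819 to 44202 CPM. *Hsd17b7* had the largest log2FC among them (-5.41, SE 0.32), and *Star* had -1.56 (SE 0.29). 4 of 5 erythroid genes tested were weaker as well, with sums of 875.6 to 1669 CPM in estrus and 1274 to 3519 CPM in diestrus. Red blood cells are rich in the products of *Cat*, *Gpx1* and *Prdx2*. 4 of 9 granulosa genes, 2 of 4 theca genes and 3 of 5 endothelial genes tested were also weaker in FL1 estrus. The granulosa gene *Amhr2* (log2FC 0.53, SE 0.11), the oocyte gene *Bmp15* (0.81, SE 0.24) and the oviduct marker *Krt7* (1.47, SE 0.28) were stronger. The part of these markers in the stage differences of the members was not tested.

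**Figure D3:**
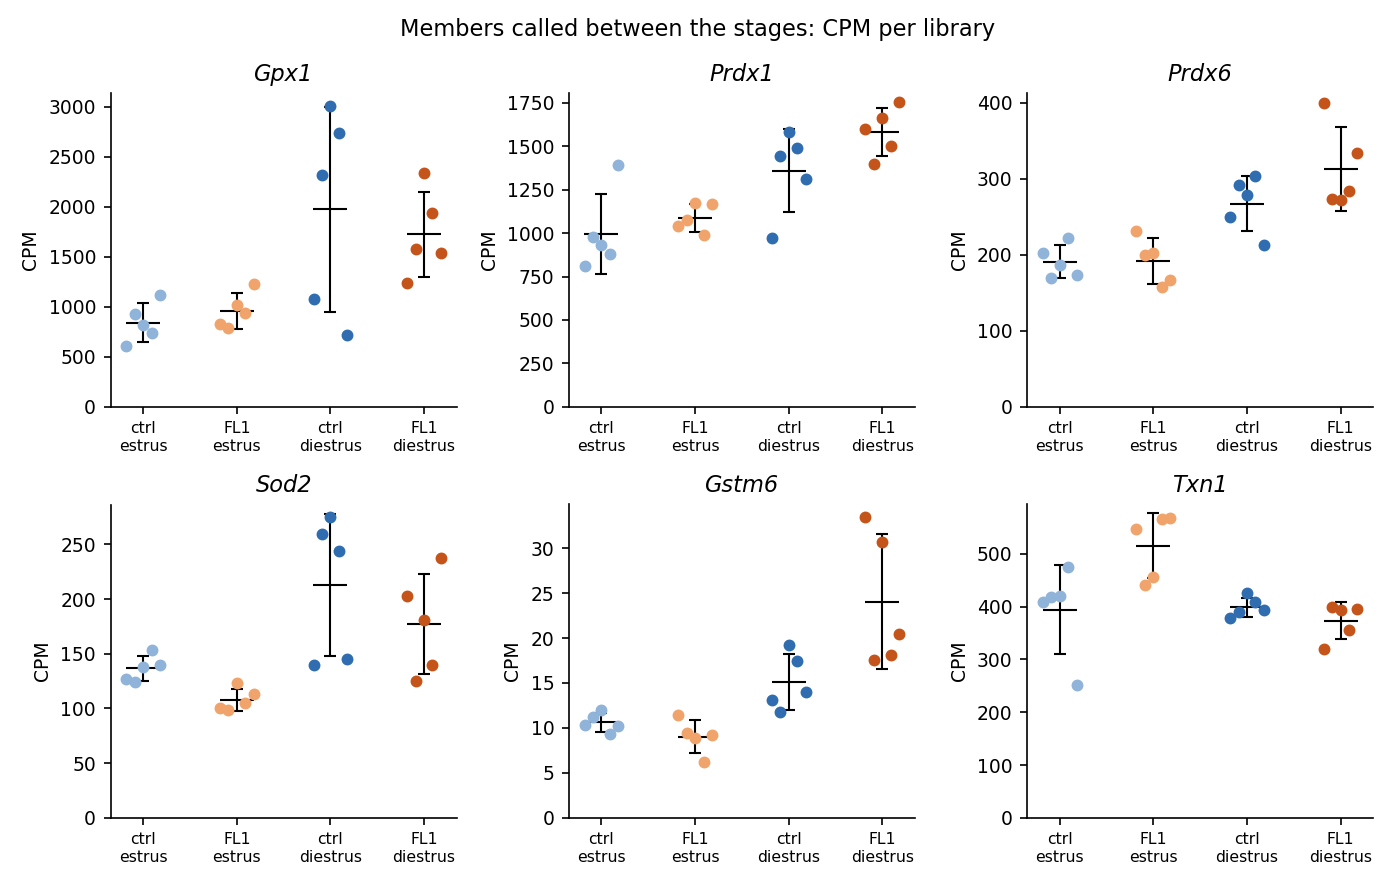
CPM per library in the 4 groups (horizontal line mean, bars SD, 5 libraries each) of 6 members called between the stages. In FL1, *Gpx1*, *Prdx1*, *Prdx6*, *Sod2* and *Gstm6* are lower in estrus than in diestrus in every library and *Txn1* is higher, whereas ctrl diestrus replicates 1 and 5 lie low for *Gpx1* and *Sod2*.

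In ctrl, 1 of 43 members tested was called between the stages (2.33%, beside 2.85% of all 13334 genes, 1.78% higher and 1.06% lower in estrus), a share close to that of all genes. It was lower in estrus. *Prdx6* measured 202, 169, 187, 222 and 174 CPM in ctrl estrus. It measured 250, 292, 279, 303 and 213 CPM in ctrl diestrus, where only replicate 5 reached into the estrus range (log2FC -0.49, SE 0.12, adjusted p = 0.044). The call held in 1 of the 10 fits without 1 library, that without ctrl diestrus replicate 5, and the adjusted p was at most 0.12 in the others, with log2FC between -0.56 and -0.45. For *Gpx4*, named after its values were seen, the smallest value of ctrl diestrus, 16.6 CPM, was above the largest of ctrl estrus, 16.4 CPM (log2FC -0.82, SE 0.21, adjusted p = 0.051), and it was the only member whose groups did not overlap, beside 4.51% of all genes. A transcribed pseudogene, *Gpx4-ps2*, shares the 3′ end of *Gpx4* and held 1730 counts in all libraries beside 2820 of *Gpx4*, so reads may have been split between them.

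Of the markers in ctrl, luteal *Hsd17b7* (log2FC -3.27, SE 0.48) and *Lhcgr* (-1.75, SE 0.34), granulosa *Inhba* (-1.504, SE 0.34) and theca *Cyp17a1* (-5.02, SE 0.71) were weaker in estrus, and macrophage *Cd68* was stronger (0.82, SE 0.20). *Hsd17b7* and *Lhcgr* were low in ctrl diestrus replicate 5, with the counts given above. The summed luteal level was 14437 to 33517 CPM in ctrl estrus and 23411 to 41839 CPM in ctrl diestrus, and its part in the values of the members was not tested.

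The count of calls in ctrl depended on single libraries. It was 0 by edgeR without any 1 of ctrl estrus replicates 1 to 4 or ctrl diestrus replicates 2 to 4 (10 to 14 members then had an unadjusted p under 0.05, and DESeq2 called 5 over all libraries), 2 without ctrl estrus replicate 5, 3 without ctrl diestrus replicate 1 and 4 without ctrl diestrus replicate 5. Without ctrl diestrus replicates 1 and 5, a choice made after seeing the data, 6 members were called, all weaker expressed in estrus, beside 430 of all 13772 genes tested in that fit. *Gpx1* then had a log2FC of -1.69 (SE 0.18, adjusted p = 0.00074) instead of -1.23 (SE 0.34, adjusted p = 0.071). *Sod2* had -0.93 (SE 0.11, adjusted p = 0.0014) instead of -0.64 (SE 0.18, adjusted p = 0.088). *Gpx4*, *Mgst1*, *Prdx3* and *Prdx6* were the other 4. No member had a line-by-stage interaction called by edgeR, and DESeq2 called the 3 named above.

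**Figure D4:**
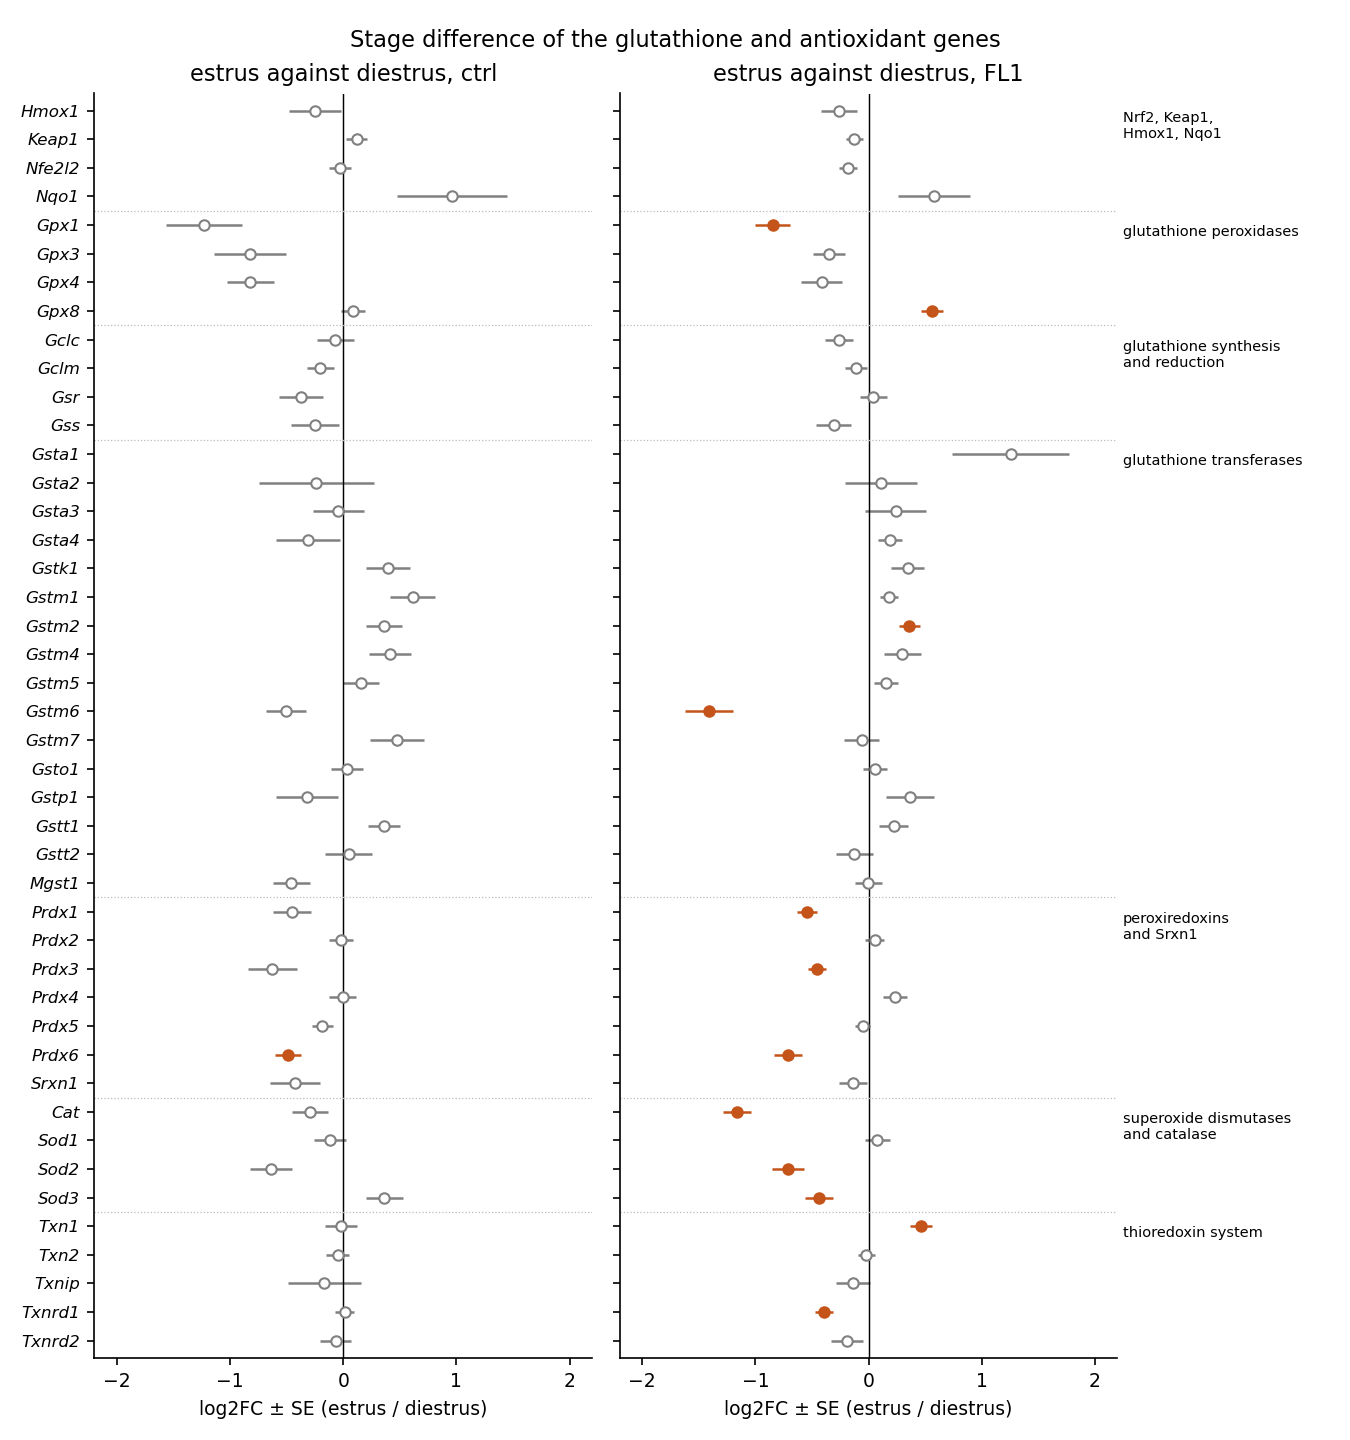
Log2FC of estrus relative to diestrus with SE for the members in ctrl (left, 43 tested) and FL1 (right, 44 tested), grouped by role. Filled symbols mark the 1 member called in ctrl and the 12 called in FL1, of which 9 lie left of zero and 3 right.

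How the members followed the luteal genes among animals of the same group was described with the slope of each gene on the luteal score, with the 4 groups as a factor, over all 20 libraries. A slope is the change in log2 CPM per log2 unit of the score, and gene and score come from the same library, with its depth and scaling in common. 5 of 44 members were called (11.4%, beside 5.19% of all 14154 genes), 4 with a positive slope (beside 3.45%) and 1 with a negative slope (beside 1.74%). *Gpx1* rose with the score (slope 0.97, SE 0.20, adjusted p = 0.0048), as did *Gpx3* (0.82, SE 0.20, adjusted p = 0.015), *Mgst1* (0.45, SE 0.11, adjusted p = 0.021) and *Prdx1* (0.43, SE 0.09, adjusted p = 0.0068). *Gstm5*, a mu class transferase, fell with it (-0.42, SE 0.11, adjusted p = 0.025). *Gss*, the glutathione synthetase, named after its value was seen, was next with 0.52 (SE 0.16, adjusted p = 0.052). With a score over *Star*, *Cyp11a1* and *Hsd3b1* alone, the slope of *Gpx1* was 0.73 (SE 0.23, adjusted p = 0.054) and that of *Gstm5* -0.36 (SE 0.12, adjusted p = 0.061), so that both lost their calls.

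The calls of these slopes depended on the libraries that stood apart. Without ctrl estrus replicate 5, *Gpx1* (1.07, SE 0.22, adjusted p = 0.012) and *Mgst1* (0.56, SE 0.12, adjusted p = 0.014) were called and the other 3 were not. Without the 2 libraries farthest from their group means, ctrl estrus replicate 5 and ctrl diestrus replicate 1, no member was called by edgeR, 9 had an unadjusted p under 0.05, and 96 of all genes were called. The slope of *Gpx1* was then 1.02 (SE 0.27, adjusted p = 0.084), that of *Mgst1* 0.45 (SE 0.13, adjusted p = 0.11) and that of *Gpx3* 0.56 (SE 0.24, adjusted p = 0.36), while *Prdx1* had 0.21 (SE 0.10, adjusted p = 0.42) and *Gstm5* -0.23 (SE 0.12, adjusted p = 0.52). *Gpx3* also lost its call without ctrl estrus replicate 3, *Mgst1* without ctrl diestrus replicate 1 or 3, and *Gstm5* without ctrl estrus replicate 3, FL1 estrus replicate 3 or ctrl diestrus replicate 1 or 3. *Gpx3* had a positive slope on the score and was lower in FL1 diestrus, where the score was 11.4 to 11.8, than in ctrl diestrus, where it was 10.5 to 11.6. The part of the score in this line difference was not tested.

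**Figure D5:**
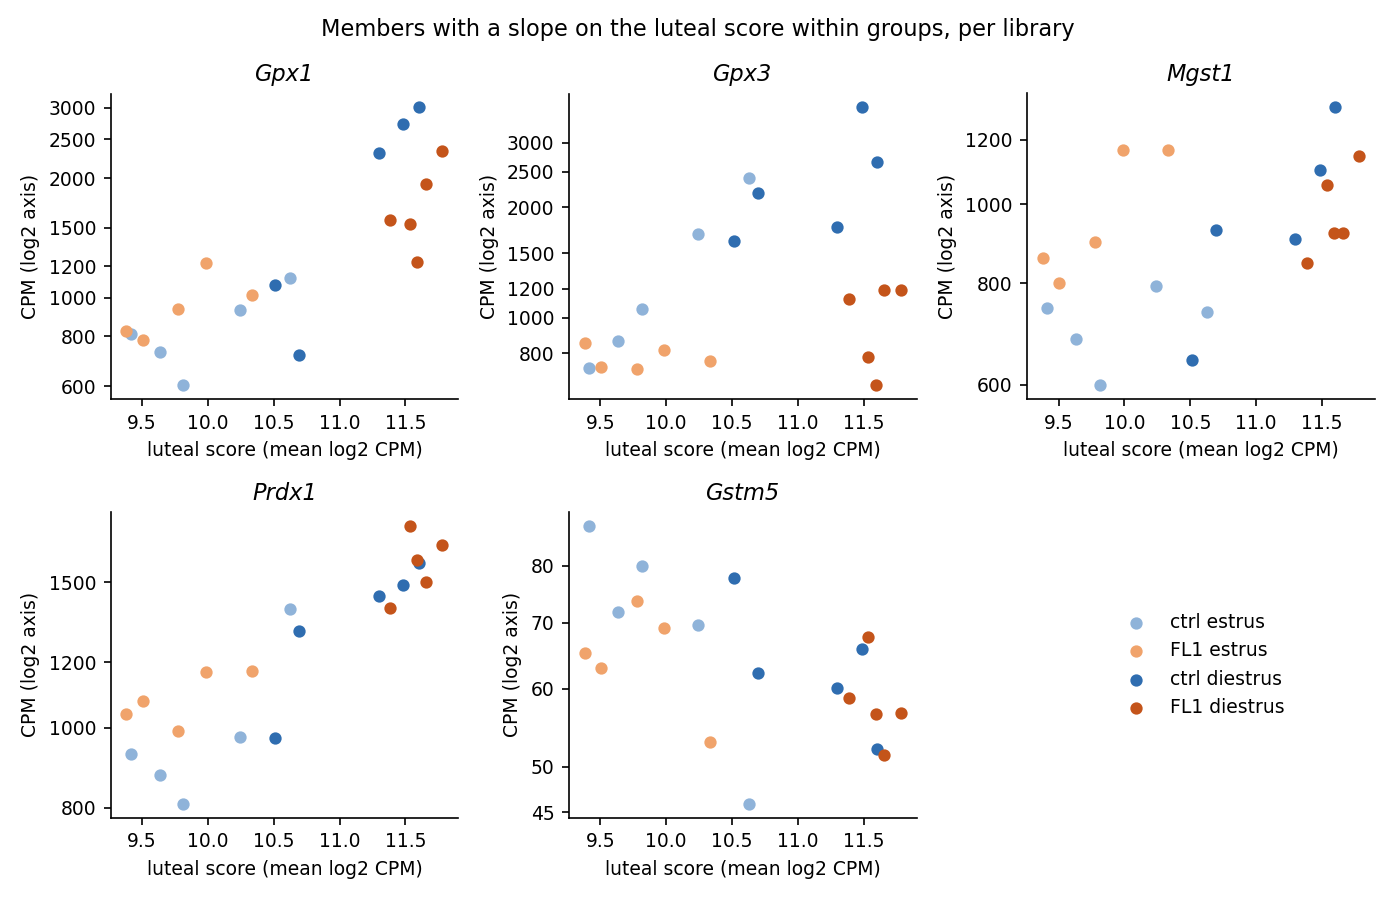
CPM (log2 axis) of the 5 members with a called slope against the luteal score (mean log2 CPM of 9 luteal genes), 1 point per library, coloured by group. The slopes were fitted within groups and do not hold the difference between the stages. Across the stages *Gpx1* and *Prdx1* climb with the score, the FL1 diestrus libraries of *Gpx3* lie at high scores and low CPM, and *Gstm5* declines.

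*Cat*, *Gpx8* and *Txnrd1* were called both between the lines in diestrus and between the stages in FL1, 2 comparisons that share the FL1 diestrus libraries, so that their values stand side by side and not as independent results. Members called by neither edgeR nor DESeq2 in the 4 comparisons between groups included both subunits of the rate-limiting enzyme of glutathione synthesis, *Gclc* and *Gclm*, with group means of 72.3 to 86.7 and 43.1 to 51.5 CPM. *Nfe2l2* (165 to 187 CPM), *Keap1* (113 to 129 CPM) and *Sod1*, the cytosolic superoxide dismutase (872 to 987 CPM), also had group means close to each other. *Hmox1*, the haem-degrading oxygenase, had group means of 29.6 to 39.4 CPM. *Nqo1*, a quinone reductase and classical Nrf2 target, was scarce, with 5 to 115 counts per library and group means of 3.74 ± 1.82 to 7.31 ± 4.81 CPM (SD, n = 5). *Gsta1* was the scarcest member, with 1 to 23 counts per library, and its 3′ end shares sequence with *Gsta2* and other genes. 13 members share the 3′ end of their transcripts with another gene, among them *Gstm1*, *Gstp1*, *Prdx1*, *Prdx2*, *Sod1* and *Sod2*, and of the 5 members called between the lines none does. The shared sequence of *Sod2* lies in *Rps6ka2* and a lincRNA, with 486 and 621 counts in all libraries. How strand was treated in counting is not given in the sources used here, and the genes that overlap *Txnrd1* and *Gpx8* had at most 20 counts in all libraries.

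Other genes of the same pathways, 56 by name, gave 45 tested genes. The shares of all genes beside their counts were 4.11% between the lines in diestrus, and 2.85% in ctrl and 15.9% in FL1 between the stages, close to those of these genes. In estrus none was called between the lines by edgeR (beside 2.33% of all genes), 5 had an unadjusted p under 0.05, and DESeq2 called 2 of 49. In diestrus 2 were weaker expressed in FL1, *Chac1*, which degrades glutathione in the cytosol (log2FC -1.82, SE 0.39, adjusted p = 0.015), and *Nfe2l1*, a relative of Nrf2 (log2FC -0.52, SE 0.09, adjusted p = 0.0045). *Chac1* measured 10.8, 14.2, 16.7, 7.73 and 19.4 CPM in ctrl diestrus and 1.00, 2.22, 5.35, 4.39 and 6.66 CPM in FL1 diestrus, without overlap. *Nfe2l1* measured 260, 330, 308, 325 and 276 CPM in ctrl diestrus and 195, 216, 227, 216 and 192 CPM in FL1 diestrus, also without overlap. Between the stages 1 of the 45 was called in ctrl and 8 in FL1, of which 5 were higher and 3 lower in estrus. DESeq2 called 3 of 46 between the lines in diestrus, and 4 of 46 in ctrl and 10 of 46 in FL1 between the stages. The shares of all genes given here are those of edgeR. The slope on the luteal score was called for 4 (beside 5.19% of all genes), 3 positive (beside 3.45%) and 1 negative (beside 1.74%). The interaction was called for none by edgeR or DESeq2, with 4 at an unadjusted p under 0.05.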

How the data were processed

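RNA of 20 ovaries, 5 per line and stage, was prepared by the authors with a forward QuantSeq 3′ kit, which reads from the poly(A) end. The trimmed reads were aligned with STAR to GRCm38 (Ensembl release 95). The counting tool and its strand setting are not given in the sources used here, and the submitters' processing notes list Cuffdiff beside STAR. The authors deposited raw counts per gene, 1 table per library, without normalization or pooling. Reads of near-identical copies can be lost or split, and no molecular identifiers are named. The printed SE come from the fit over animals and hold the spread between them.

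Everything else was computed from these counts. Symbols and positions were taken from GENCODE M21 (GRCm38), which held 54809 of the 54838 genes. edgeR 4.0.16 (glmQLFit, glmQLFTest) in R 4.3.3 was fitted with TMM normalization over the genes that filterByExpr kept (minimum count 10) to the 10 libraries of each comparison, or to all 20 for the interaction and the luteal slope. P-values were adjusted by Benjamini-Hochberg over all genes tested, and the SE was taken as log2FC over the root of F, without sign. CPM used TMM factors over all 20 libraries, and the luteal score used log2 CPM with a prior count of 2. The summed marker levels were compared by exact two-sided permutation over all 252 splits of 5 against 5 in 44 comparisons, of which the lowest Benjamini-Hochberg adjusted p was 0.0873, and the smallest exact p possible was 0.00794. The edgeR and DESeq2 tests were tested on simulated data. As a copy of a member counted a non-overlapping gene in which 50 or more 31-nt words recurred, taken from the final 300 nt of the member's transcripts. Promoter windows came from RefSeq (GRCm38.p6). Of 56 other pathway genes, 55 were matched, and *Nnt* was not analysed here. Scripts ran in Python 3.11.15 (pandas 2.3.3, numpy 2.4.6, matplotlib 3.10.9, scipy 1.17.1).

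The members and lists were chosen with earlier results of these data known. Named were members called between the lines or in the interaction, the 6 largest called stage differences in each direction per line, and the 5 largest called slopes in each direction. Members singled out beyond this are mostly marked, and members given only within a role group or as not called are not. Alternatives were DESeq2 1.42.0, its size factors in edgeR, no filter or at least 10 counts in every library, the replicate number as a block, counts of copies added, 1 fit of all libraries, a luteal score over 3 genes, and single libraries left out. The replicate numbers only order the animals of a group. A depth of 5991223 to 10352718 counts sets the precision, and a count of 0 allows up to 3 counts.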

Additional observations from a re-analysis of the deposited data

Results flagged for a closer look

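The 14 members named by the rule, for comparisons between groups or for the luteal slope, were searched for outlying libraries. In each of the 4 groups of 5 libraries, single libraries far from the rest were sought, which made 56 groups. *Prdx3* and *Sod3*, called between the stages in FL1, were not among the genes searched. 1 library was found. *Prdx1* measured 1393 CPM in ctrl estrus replicate 5, and the nearest library of that group measured 976 CPM, a gap of 0.715 of the range of the group. By chance about 1 in 20 groups is marked by this rule. The same library had the highest luteal score of its group (10.6) and 251 CPM of *Txn1*, against 408 to 475 CPM in the other 4. The part of its luteal level in the *Prdx1* value was not tested. Without it the slope of *Prdx1* on the luteal score was 0.33 (SE 0.10, adjusted p = 0.076, edgeR) instead of 0.43.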

How the results depend on the processing

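The numbers of members called were recomputed under each alternative. In estrus, DESeq2 called 1 member (*Mgst1*) and edgeR without a filter 1 (*Gpx3*) between the lines, against 0. In diestrus the number was 3 to 5 with 1 library left out and 4 to 7 otherwise. Between the stages in ctrl, 1 call became 2 with DESeq2's size factors, 5 with DESeq2, 4 without a filter, 2 with the replicate block, 2 with counts of copies added, 7 in 1 fit of all libraries, 6 without both ctrl diestrus libraries of low luteal score (chosen after seeing the data), and 0 to 4 with 1 library left out. Between the stages in FL1 the number was 8 in 1 fit of all libraries and 11 to 13 otherwise, against 12. For the interaction DESeq2 called 3, against 0. For the luteal slope the number was 3 with the replicate block, 0 without the 2 farthest libraries and 2 to 6 with 1 library left out, against 5. Among all genes, the number called rose with DESeq2 from 311 to 653 (line in estrus), 545 to 896 (line in diestrus), 380 to 765 (stage in ctrl), 8 to 152 (interaction) and 734 to 1157 (slope). Without a filter it was 477, 846 and 17 for the line in estrus, the line in diestrus and the interaction, and in 1 fit of all libraries 531 for the line in estrus and 909 for the stage in ctrl. For the slope it was 357 with the replicate block and 96 without the 2 farthest libraries. With 1 library left out it ranged from 175 to 418, 349 to 594, 176 to 516, 0 to 15 and 338 to 1098 in the same order.

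For 20 named results in 401 fits, the direction was kept in all and the call was lost in 46. Same-numbered libraries of different groups correlated between -0.095 and 0.20 in their deviations from the group means and share only a number. With the replicate block, 4 members were called between the lines in diestrus (*Txnrd1* was lost), *Gpx4* and *Prdx3* in place of *Prdx6* between the stages in ctrl, and the slopes of *Gpx3*, *Mgst1* and *Gstm5* lost their calls while that of *Nqo1* was called. Depth limits *Gsta1* and *Nqo1*, with 1 to 23 and 5 to 115 counts per library.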
